A study of Mus musculus with 2 samples.

Results

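The *Hox* genes of the a, b, c and d clusters and the caudal genes *Cdx1*, *Cdx2* and *Cdx4* were compared between a *Dullard*+/- and a *Dullard*-/- sample of whole mouse embryo at E7.5. The members were all genes whose mouse symbol, taken from the RefSeq accession of the probe, is *Hoxa*, *Hoxb*, *Hoxc* or *Hoxd* with a number, together with the 3 *Cdx* genes. This gave 42 genes, 39 *Hox* and 3 *Cdx*, of 20281 genes named on the array. Of the 41 described here, 38 *Hox* and 3 *Cdx*, 18 were well above background on both arrays, 6 only in the *Dullard*+/- sample, 2 only in the *Dullard*-/- sample and 15 on neither.

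The study asked how loss of *Dullard* (*Ctdnep1*), a phosphatase of the nuclear envelope, alters gene expression in the gastrulating embryo. Total RNA of whole embryos (C57BL/6, E7.5) was labelled with 1 dye and run on Agilent arrays, 1 array for a *Dullard*-heterozygous sample (the heterozygote) and 1 for a *Dullard*-homozygous sample (the homozygote). How many embryos went into each sample is not said in the sources used here. The methods describe 2 targeted alleles whose homozygotes are both named *Dullard*-/-, and the sources used here do not say which of them these embryos carried. Neither sample was wild type, so the heterozygote is the reference throughout. As each genotype has 1 sample, there is no replicate check and no p-value, and each value describes these samples only. The heterozygous array held both *Xist*, the RNA that coats an inactive X chromosome, at 344 and 634 on its probes, and the Y-linked genes *Ddx3y* and *Eif2s3y*, at 89.3 and 99.8. The homozygous array held the Y-linked genes, at 132 and 214, with *Xist* at 1.67 and 4.55, not well above background. *Xist* and Y-linked RNA together are not usual for 1 embryo, so the heterozygote may not be a single embryo free of other tissue. What else it held was not tested, and every value of the heterozygote is read with this doubt. The number of arrays limits the precision.

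*Hox* genes encode homeodomain transcription factors that stand in clusters and give cells their position along the head-to-tail axis. They are switched on in order along each cluster during gastrulation, those of low paralogue number first and in the posterior primitive streak, and their later expression borders follow the same order. *Cdx* proteins are related homeodomain factors of the posterior embryo that activate many *Hox* genes and respond to WNT, FGF and retinoic acid signals. At E7.5 only a part of the embryo, the posterior streak and the mesoderm and ectoderm next to it, is known to express *Hox* genes. In a whole embryo, fewer expressing cells and less RNA per cell cannot be told apart.

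Any windows of the 41 genes on a chromosome that the search skipped were not counted. This left RefSeq promoter windows for 24 of the 41 genes, 26 windows in all. They are shown for *Hoxb1*, *Hoxd9* and *Hoxd11*, chosen after their values were seen because each gave a lower signal in the homozygote, to set the sequence next to the start of these genes beside the values. Each run is the 250 bases before an annotated start (RefSeq, GRCm38.p6), 5′ to 3′. Capitals mark letters that match any of 4 short motifs searched on both strands: TTTATG (bound by CDX proteins), CTTTGA (bound by TCF and LEF factors), TGATNNAT (bound by HOX and PBX proteins together) and AGGTCA (bound by retinoic acid receptors).
Hoxb1, chr11:96365508-96365757, + strand: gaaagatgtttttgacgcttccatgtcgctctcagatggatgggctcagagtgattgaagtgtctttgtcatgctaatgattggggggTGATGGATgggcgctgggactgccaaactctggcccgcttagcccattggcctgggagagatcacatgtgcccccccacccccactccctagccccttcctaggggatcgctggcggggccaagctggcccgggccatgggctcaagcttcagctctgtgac
Hoxd9, chr2:74697513-74697762, + strand: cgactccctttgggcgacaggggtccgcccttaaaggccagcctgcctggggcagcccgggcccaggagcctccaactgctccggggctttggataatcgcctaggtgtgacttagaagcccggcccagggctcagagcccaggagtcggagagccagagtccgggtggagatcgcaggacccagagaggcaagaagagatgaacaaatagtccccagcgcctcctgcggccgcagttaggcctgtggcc
Hoxd11, upstream start, chr2:74679308-74679557, + strand: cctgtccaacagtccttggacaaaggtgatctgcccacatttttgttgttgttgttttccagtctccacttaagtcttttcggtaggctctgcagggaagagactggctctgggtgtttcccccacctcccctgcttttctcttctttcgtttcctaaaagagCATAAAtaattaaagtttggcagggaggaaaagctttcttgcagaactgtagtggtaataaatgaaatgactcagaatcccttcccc
Hoxd11, downstream start, chr2:74682073-74682322, + strand: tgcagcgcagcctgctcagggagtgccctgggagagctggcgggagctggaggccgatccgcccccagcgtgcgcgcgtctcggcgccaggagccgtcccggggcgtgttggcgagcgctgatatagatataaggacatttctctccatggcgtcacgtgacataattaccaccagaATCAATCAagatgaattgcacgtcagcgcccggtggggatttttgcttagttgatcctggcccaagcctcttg
The capitals in *Hoxb1* and at the downstream start of *Hoxd11* are TGATNNAT matches, that of *Hoxd11* on the opposite strand. Those at the upstream start of *Hoxd11* are TTTATG on the opposite strand, and the *Hoxd9* window holds no match. Over the 26 windows of the *Hox* and *Cdx* genes, TTTATG stood in 5 (19.2%), against 10.8% of 32851 windows of all genes. TGATNNAT stood in 4 (15.4%), against 7.68%. AGGTCA stood in 6 (23.1%), against 14.0%, and CTTTGA in 3 (11.5%), against 13.8%. A match to letters is a description of the window and not a measured binding site.

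Each spot value is the background-subtracted signal in intensity units, and a log2 fold change is *Dullard*-/- over *Dullard*+/- after each array was scaled to its 75th percentile, which was 286 for *Dullard*+/- and 264 for *Dullard*-/-. The error given with it is how far repeated spots of one probe scatter at that brightness (SD), reduced by averaging where a gene has several probes. Differences between embryos or samples are not in it. *Dullard* itself gave 672 and 144, a log2 fold change of -2.11 ± 0.06, lower in the sample labelled homozygous. Its signal was well above background on both arrays, while the paper detected none of its mRNA in *Dullard*-/- embryos. The source of the signal left in the homozygote was not tested. Of 43020 spots, 31242 were well above background on the heterozygous array and 29310 on the homozygous array.

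Of the 18 *Hox* and *Cdx* genes measured on both arrays, 4 were at least 1.5-fold lower in the homozygote (22.2%), and 1 was at least 1.5-fold higher. The 4 were *Hoxd9*, *Cdx1*, *Hoxb2* and *Hoxb6*, and the 1 was *Hoxa9*. With another background correction (normexp), 1 was lower, *Hoxd9*, and none higher. Of all 14771 genes measured on both arrays, 3.37% were at least 1.5-fold lower and 3.92% at least 1.5-fold higher, and 5.29% and 2.63% where the arrays were not scaled. Most *Hox* and *Cdx* signals were dim, with 9 of the 18 among the dimmest 25% of genes. In those dimmest genes the shares were 9.29% lower and 8.32% higher, with 53.1% below 0. Within the signal range spanned by the 18 genes, they were 5.15%, 5.14% and 51.5%. At 2-fold, 3 of the 18 were lower and none higher, where 0.765% of all genes were lower and 0.894% higher, 2.19% and 2.3% of the dimmest 25%, and 1.26% and 1.22% of genes in the same signal range. The median log2 fold change of the 16 *Hox* genes was -0.13, against 0.01 over all genes, and 12 of the 18 lay below 0, where 48.0% of all genes did. Without scaling, which moved the median of all genes to -0.10, 15 of the 18 lay below 0.

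**Figure D1:**
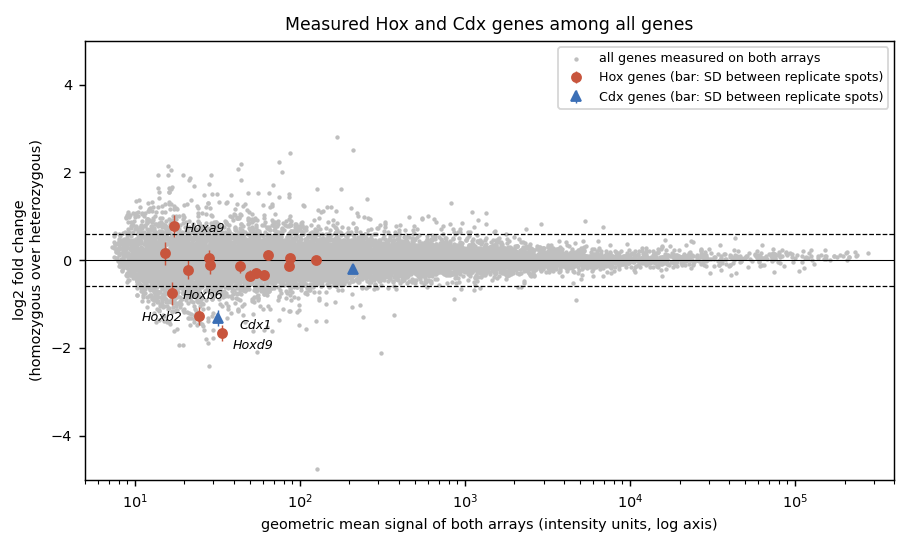
Log2 fold change (homozygote over heterozygote, vertical axis) against the geometric mean signal of both arrays (horizontal axis, intensity units, log axis), 1 array per genotype. Grey points are other genes measured on both arrays, circles the 16 *Hox* genes and triangles the *Cdx* genes, bars are the error from replicate spots, and dashed lines mark 1.5-fold. Of the *Hox* and *Cdx* genes, *Hoxd9* lies lowest, at -1.65, and *Hoxa9* highest, at 0.77.

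Of the *Cdx* genes, *Cdx1* was past 1.5-fold lower in the homozygote, *Cdx4* was so by its bound, and *Cdx2* was inside 1.5-fold. *Cdx1*, a direct target of WNT and retinoic acid signals in the streak, gave 52.7 in the heterozygote and 19.6 in the homozygote, 2.49-fold lower after scaling (log2 fold change -1.32 ± 0.18). *Cdx4*, the member most restricted to the posterior end and known for its role in early blood formation, gave 18.6 and 5.31. It was well above background in the heterozygote only, which puts the homozygote at least 2.36-fold lower. For this bound, as for those below, the dim array is set at the lowest signal of a probe well above background there (5.99 for the heterozygote and 7.27 for the homozygote, as means of log2 spot signals), or at the gene's own signal if that was higher. *Cdx2*, which also marks the trophoblast and the chorion, gave 235 and 190, a log2 fold change of -0.19 ± 0.07.

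*Cdx4* is on the X chromosome, and the part of the difference in *Xist* in the *Cdx4* value was not tested. Markers of the extraembryonic ectoderm and trophoblast, where *Cdx2* is also expressed, went both ways. Of 6 measured on both arrays 4 lay below 0, with a median of -0.04. *Ascl2* was 1.66-fold lower (-0.74 ± 0.09) and *Esrrb* was at 0.51 ± 0.05. *Esx1*, seen in the homozygote only, was 2.66-fold higher by its own signals, a measured value and not a lower bound. The summed signal over the whole list of 8, before scaling, was 2864 and 2876, and *Tpbpa* was not well above background on either array. Their part in the *Cdx2* value was not tested.

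**Figure D2:**
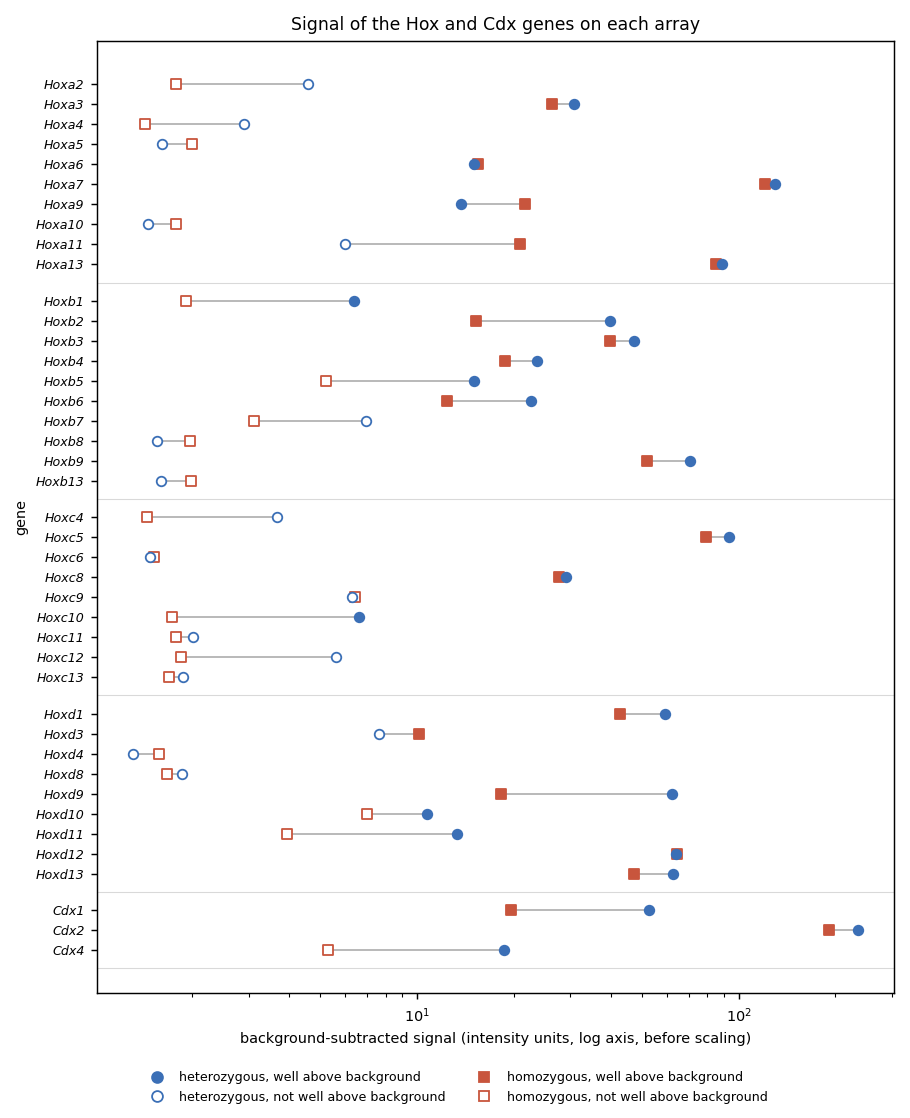
Background-subtracted signal (horizontal axis, intensity units, log axis, before scaling) of each *Hox* and *Cdx* gene in the heterozygote (circles) and the homozygote (squares), 1 array each. Filled marks were well above background and open marks were not. The lines are long for *Hoxc10*, *Cdx4*, *Hoxa11*, *Hoxd9*, *Hoxd11* and *Hoxb1*, among others, and short for *Hoxa7*, *Hoxc8* and *Hoxd12*. Of the long lines named, only that of *Hoxd9* has both marks filled, so the length of the others is not a firm size.

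The genes of paralogue number 1 to 3 serve the hindbrain and the neck, and are the first of each cluster to be switched on. The 4 described here that were measured on both arrays lay below 0, where 48.0% of all measured genes did, with a median of -0.25. *Hoxb2*, a target of *Hoxb1* in the fourth rhombomere, gave 39.7 and 15.3, 2.40-fold lower (-1.26 ± 0.20). *Hoxd1* gave 59.2 and 42.7 (-0.36 ± 0.13), past its error but inside 1.5-fold. *Hoxa3*, needed for the thymus and parathyroid, gave 30.9 and 26.3 (-0.12 ± 0.19), and *Hoxb3* gave 47.4 and 39.8 (-0.14 ± 0.14). Neither was past its error. The other *Hoxb3* probe was well above background in the heterozygote only, at 7.66 and 7.19 before scaling. After scaling, its log2 fold change was 0.02, on the other side of 0. *Hoxd3* went the other way, at 7.61 and 10.2. It was well above background in the homozygote only, and was 1.45-fold higher there by its own signals, a measured value and not a lower bound.

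*Hoxb1*, which gives the fourth rhombomere its identity and whose promoter window is printed above, has a probe spotted 10 times. In the heterozygote its spots ran from 3.39 to 10.2 with a median of 6.62, and 5 of the 10 were well above background. In the homozygote they ran from 1.45 to 2.55 with a median of 1.87, and none was. The spots of the arrays did not overlap, and at each of the 10 positions the *Dullard*-/- signal was the lower. The mean difference was -1.55 on the log2 scale, with an SD of 0.62 over the 10 positions. The heterozygous signal, 5.99 as a mean of log2 spot signals, was itself the lowest that counted as well above background on that array. It lay below the lowest on the homozygous array, 7.27, so no bound on the fold can be given. In the homozygote 2 of the 10 spots were significantly above background by the scanner software. To spots that are not, the software gives low values of its own. The size of the difference, the lack of overlap and the direction at each position rest in part on these values. Spots of an array share its RNA, so they show the spread of the measurement and not that between embryos.

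*Hoxa11*, a gene of the sacral vertebrae, the forearm and the uterus that is also known in the allantois, was the reverse case. Its probe was spotted 10 times too. The spots ran from 3.45 to 8.82 in the heterozygote, with a median of 6.26, and from 19.1 to 23.1 in the homozygote, with a median of 20.5. They did not overlap either, and at each position the *Dullard*-/- signal was the higher. All 10 spots were well above background in the homozygote and 4 of 10 in the heterozygote. With the heterozygous floor of 5.99, which is the signal of the *Hoxb1* probe, *Hoxa11* was at least 3.77-fold higher in the homozygote. The measured difference was 1.97 on the log2 scale, with an SD of 0.43 over the 10 positions. As the probe was not well above background in the heterozygote, the bound is the firmer statement of size. *Hoxa11os*, the antisense RNA of this gene, had a log2 fold change of 0.13 ± 0.14.

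**Figure D3:**
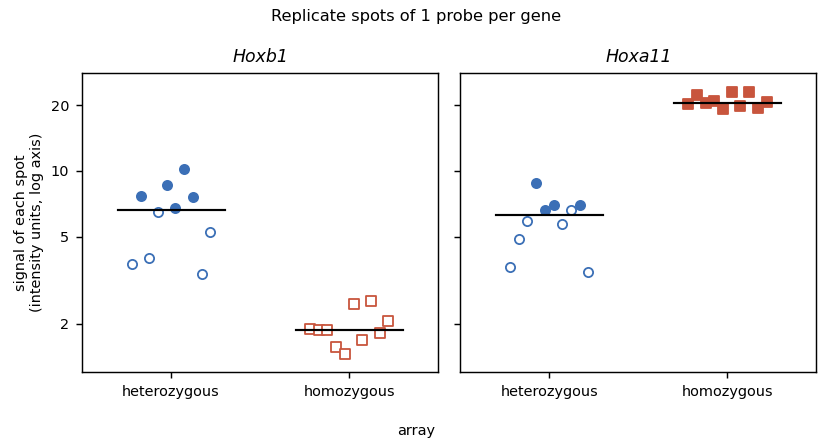
Signal of each of the 10 spots (vertical axis, intensity units, log axis) of the *Hoxb1* probe and the *Hoxa11* probe on the heterozygous and homozygous arrays. Filled marks are spots well above background, and lines are medians. The arrays do not overlap for either gene, and the direction is opposite: medians of 6.62 and 1.87 for *Hoxb1* and of 6.26 and 20.5 for *Hoxa11*. In the homozygote 2 of the 10 *Hoxb1* spots were significantly above background.

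Genes of paralogue number 4 to 8 pattern the neck and thorax, and most were at or near background. Of 15, 6 were measured on both arrays, with a median of -0.05, and 8 were well above background on neither. *Hoxb6* was 1.69-fold lower, at 22.6 and 12.4 (-0.75 ± 0.26). *Hoxb5* gave 15.0 and 5.23, was well above background in the heterozygote only, and was at least 1.91-fold lower. The other measured genes lay close to 0. *Hoxb4*, a gene of the neck vertebrae that also acts in blood stem cells, gave 23.7 and 18.8 (-0.22 ± 0.22), at the edge of its error. *Hoxc5* gave 93.5 and 79.4 (-0.12 ± 0.09), and *Hoxa7*, the brightest *Hox* probe of these, gave 129 and 121 (0.01 ± 0.09). *Hoxc8*, a thoracic gene, gave 29.0 and 27.7 (0.05 ± 0.19), and *Hoxa6* gave 15.1 and 15.5 (0.15 ± 0.27). Both were within their error.

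The posterior genes, of paralogue number 9 to 13, are known in the trunk, limbs, tail and urogenital tract, and they went both ways. By signal, those measured had a median percentile of 31.4 among all measured genes, against 22.4 for numbers 1 to 3 and 15.5 for 4 to 8. This brightness does not follow the order of switching on given above, but it compares different probes, and only genes measured on both arrays. It therefore cannot rank expression between genes. Whether each probe signal came from its own gene was not tested. *Hoxd9* gave 62.2 and 18.3, 3.14-fold lower in the homozygote (-1.65 ± 0.18), the largest difference of the 18. Its neighbours *Hoxd10* and *Hoxd11* were well above background in the heterozygote only. *Hoxd11* gave 13.4 and 3.95 and was at least 1.70-fold lower, while *Hoxd10*, at 10.7 and 7.01, was at least 1.37-fold lower. Further along the same cluster, *Hoxd12* gave 63.9 and 64.1 (0.12 ± 0.11), and *Hoxd13*, the digit gene, gave 62.5 and 47.3 (-0.29 ± 0.12).

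The paralogues of *Hoxd9* differed from it. *Hoxa9*, known for its part in blood progenitors, gave 13.8 and 21.8, 1.71-fold higher in the homozygote (0.77 ± 0.25). Its second probe, well above background in the homozygote only, gave 4.19 and 7.86, so both probes were higher. *Hoxb9* gave 70.8 and 51.9 (-0.34 ± 0.12), and *Hoxc9*, at 6.28 and 6.42, was well above background on neither array. *Hoxa13*, which is needed for the umbilical arteries, gave 88.9 and 84.9 on its brighter probe (0.05 ± 0.09). Its dimmer probe, at 7.03 and 4.83, was well above background in the heterozygote only. *Hoxc10* gave 6.60 and 1.74 and was well above background in the heterozygote only, too dim for a bound.

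By cluster, *Hoxb* had its values on 1 side of 0. All 5 of its genes measured on both arrays lay below 0, from -1.26 to -0.14 (with normexp *Hoxb4* was at 0.05). Their median was -0.34. Of all measured genes 48.0% lay below 0, and 53.1% of the dimmest 25%. *Hoxb3* (-0.14 ± 0.14) was within its error, with its dimmer probe at 0.02, and *Hoxb4* (-0.22 ± 0.22) was at the edge of its error. Both *Hoxb* genes seen on 1 array only were seen in the heterozygote, as were most such genes on the array (903, against 152 in the homozygote only). One of them, *Hoxb1*, was counted so with 5 of its 10 spots well above background. *Hoxd* had a median of -0.32 over 4 genes, 3 of them below 0. *Hoxa* had a median of 0.05 over 5 genes, 1 below and 4 above 0 (*Hoxa7* and *Hoxa13* below it without scaling), and *Hoxa9* and *Hoxa11* at its posterior end were higher. *Hoxc*, which has no gene of paralogue number 1 to 3, had 6 of its 9 genes well above background on neither array. Its measured genes, *Hoxc5* and *Hoxc8*, were inside 1.5-fold. These clusters were not tested against each other.

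**Figure D4:**
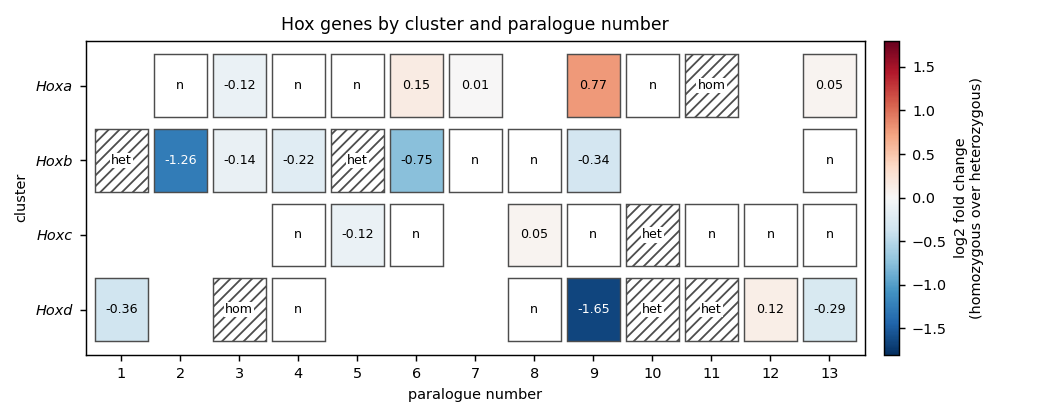
The 38 *Hox* genes described, by cluster (vertical axis) and paralogue number (horizontal axis), with the log2 fold change (*Dullard*-/- over *Dullard*+/-) as colour and number for the 16 genes measured on both arrays. Hatched squares marked het or hom were well above background in the heterozygote or homozygote only, and squares marked n on neither. The 5 coloured squares of the *Hoxb* row are blue, palest at *Hoxb3* and *Hoxb4*. Other blue squares include *Hoxd9*, the deepest, *Hoxd1* and *Hoxd13*, and *Hoxa9* at 0.77 is the deepest red.

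More genes were seen in the heterozygote only than in the homozygote only, among the *Hox* and *Cdx* genes (6 and 2) as among all named genes (903 and 152). Of the 41 genes, 17 (41.5%) were not well above background in the heterozygote and 21 (51.2%) in the homozygote, against 22.7% and 26.4% of all named genes. Those seen only in the heterozygote were *Cdx4*, *Hoxb1*, *Hoxb5*, *Hoxc10*, *Hoxd10* and *Hoxd11*, 6 of 41 (14.6%), against 4.45% of all named genes. Those seen only in the homozygote were *Hoxa11* and *Hoxd3*, 2 of 41 (4.88%), against 0.749%. By their bounds, 3 of the 41 (7.32%) were at least 1.5-fold lower, against 1.02% of all named genes, and 1 of the 41 (2.44%) was at least 1.5-fold higher, against 0.631%. The 15 genes on neither array were *Hoxa2*, *Hoxa4*, *Hoxa5*, *Hoxa10*, *Hoxb7*, *Hoxb8*, *Hoxb13*, *Hoxc4*, *Hoxc6*, *Hoxc9*, *Hoxc11*, *Hoxc12*, *Hoxc13*, *Hoxd4* and *Hoxd8*. Their signals were at most 6.95 in the heterozygote and 6.42 in the homozygote, and no fold is given for them. They were 36.6% of the 41, where 21.9% of all named genes were well above background on neither array and 72.8% on both.

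The signals that act on *Cdx* and *Hox* genes were mixed. A list of 22 WNT, FGF and retinoic acid genes and early regulators, all measured, had a median of -0.02. Of these, 3 were at least 1.5-fold lower and 4 at least 1.5-fold higher, against 3.37% and 3.92% of all measured genes. Those lower were *Fgf4* (-1.59 ± 0.12), *T* (-1.19 ± 0.09), the streak factor that drives posterior mesoderm, and *Wnt3a* (-0.94 ± 0.26), the WNT ligand known to activate *Cdx1*. Those higher were *Fgf8* (0.94 ± 0.05), *Fgf5* (0.89 ± 0.04), *Cyp26a1* (0.82 ± 0.05), whose enzyme breaks down retinoic acid, and *Wnt3* (0.68 ± 0.06). The 3 probes of *Fgf8* scattered with an SD of 0.41, more than its error shows. By in situ hybridization, the paper saw weaker *Fgf8* in the posterior segment of the streak of *Dullard*-/- embryos. *Aldh1a2*, the enzyme that makes retinoic acid, was at -0.40 ± 0.29. Of regulators of hindbrain *Hox* genes, *Otx2*, the forebrain and midbrain factor, was at 0.82 ± 0.04, *Egr2* (*Krox20*) at 0.72 ± 0.21 and *Gbx2*, which borders the *Otx2* domain, at -0.60 ± 0.16.

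The median of 11 measured HOX cofactors was -0.01. Of these, 2 were at least 1.5-fold lower and none higher by as much, against 3.37% and 3.92% of all measured genes. They were *Meis1*, which binds DNA together with HOX and PBX proteins, at 104 and 57.5 (-0.74 ± 0.10), and *Pknox2*, at 39.2 and 22.2 (-0.71 ± 0.19). *Meis2* was at -0.42 ± 0.09, while *Pbx2* and *Pbx3*, also partners of HOX proteins, were at -0.01 ± 0.05 and 0.13 ± 0.06. *Tshz2*, seen in the homozygote only, was at least 1.62-fold higher. Of 5 *ParaHox* and *Evx* genes, which are close relatives of the *Hox* genes, none was past 1.5-fold. *Evx1*, which lies next to the posterior end of *Hoxa* and marks the posterior streak, gave 519 and 579 (0.27 ± 0.05), and *Gsx1* was at -0.39 ± 0.27.

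Few chromatin regulators of the clusters were past 1.5-fold, as few of all measured genes were (3.37% lower and 3.92% higher). Of 28 measured Polycomb genes, which keep *Hox* genes silent, 1 was at least 1.5-fold lower and none higher, with a median of 0.09. The 1 was *Phf19*, at 32.7 and 15.7 (-0.95 ± 0.21). The methyltransferase *Ezh2* and its partners *Eed* and *Suz12* lay between 0.08 and 0.18. Of 17 measured Trithorax genes and activators, *Rbbp5* alone was past 1.5-fold (-0.63 ± 0.07), and the median was 0.04. Genes around the clusters gave a like picture. Of 18 measured, 1 was past 1.5-fold, *Cbx1* near *Hoxb*, which gave 42.3 and 14.5 (-1.43 ± 0.20), and the median was 0.01. *Skap1*, next to *Hoxb1*, was at -0.17 ± 0.28, *Mtx2*, near *Hoxd1*, at 0.05 ± 0.04, and *Skap2*, beside *Hoxa*, at -0.21 ± 0.06.

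**Figure D5:**
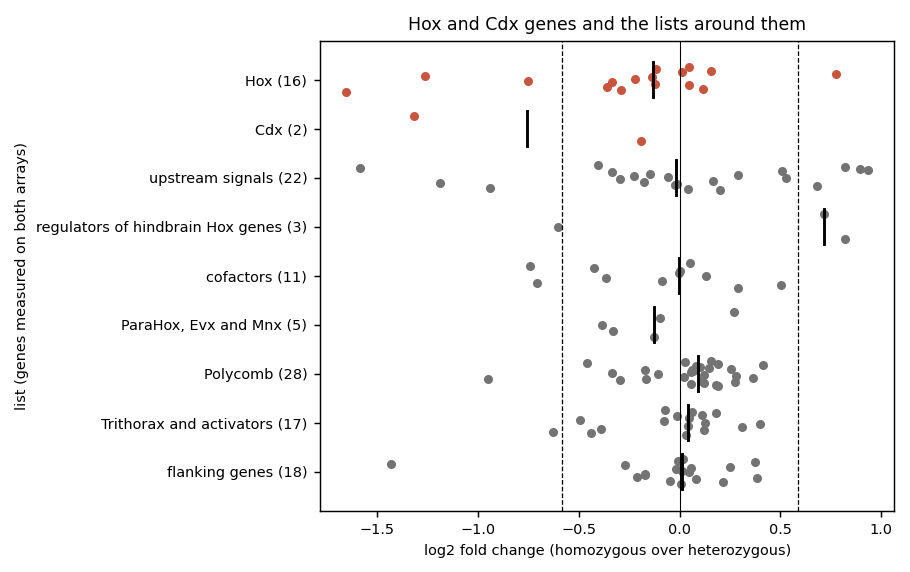
Log2 fold change (homozygote over heterozygote, horizontal axis) of the genes measured on both arrays among the *Hox* and *Cdx* genes and in 7 lists around them (vertical axis, number of genes in parentheses), 1 array per genotype. Points are genes, black bars are medians and dashed lines mark 1.5-fold. The *Hox* median lies at -0.13, and those of the Polycomb genes and of the genes around the clusters at 0.09 and 0.01.

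Marker lists of the cell types in and around the embryo were read beside these values. Summed signals are given before scaling, and the 75th percentiles were 286 in the heterozygote and 264 in the homozygote. The 6 markers of the epiblast and streak were all measured on both arrays, 1 at least 1.5-fold lower (*T*) and 3 higher (*Mixl1*, *Fgf8* and *Eomes*), with a summed signal of 157371 and 154973. *Nanog* makes up most of this sum, and the other 5 summed to 4497 and 4925. None of the 6 markers of the visceral endoderm was past 1.5-fold, their median log2 fold change was 0.04, and their summed signal was 20232 and 18897. Of 6 markers of the allantois and extraembryonic mesoderm, where some posterior *Hox* genes are known, *Tbx4*, *Vcam1* and *Postn* were well above background on neither array. The others, *Ahnak*, *Bmp4* and *Foxf1*, had a median of -0.32, and the summed signal of the list was 1395 and 1171. Of the primitive blood markers *Hbb-bh1* and *Gata1* were lower, at -2.08 ± 0.12 and -1.30 ± 0.07. *Hbb-y* was seen in the heterozygote only, and *Hba-x* and *Klf1* on neither array. The summed signal of the 5 was 525 and 184. Of the decidua list, *Des* and *Hand2*, which embryonic tissue also expresses, were at 0.25 and 0.39. The defining marker *Prl8a2*, and *Dcn*, were well above background on neither array. *Prl3c1* of this list was well above background on each array but through different probes, at a mean of 7.03 and 5.66, so it has no fold. The summed signal of the decidua list was 45.9 and 48.5. The part of these cell types in the *Hox* and *Cdx* values was not tested.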

How the data were processed

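For both arrays the authors deposited the scanner file, whose intensity values were background-subtracted per spot by Agilent Feature Extraction (10.10 per the submitters' processing notes), and a table of processed intensity values. That table is the same signal times a constant, 4.91 for *Dullard*+/- and 5.20 for *Dullard*-/-, with medians of 189 and 181. The sources used here do not say what set the constants.

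Signals were taken as log2 and scaled to the 75th percentile of the spots that are not controls. No spot was saturated, and 206 spots marked as outliers were dropped. Repeated spots were averaged per probe. A probe was well above background where at least 50% of its spots were, and a gene takes the mean of those of its probes that were so on both arrays. RefSeq accessions (GRCm38.p6 table) named 30235 spots and left 12785 unnamed. Errors rest on the 40 repeatedly spotted probes closest in brightness. For genes with several probes, the probes' log2 fold changes scattered with an SD of 0.289.

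With 1 array per genotype no test was run, and genes were counted at 1.5-fold. Of the genes chosen, 1 *Hox* gene and 3 genes of the other lists are not reported here and were left out of the members' and lists' counts, though not of those over all genes. Every other *Hox* and *Cdx* gene could be named, and from each other list the genes past 1.5-fold and those with the largest values. Others of these lists, and *Xist*, *Ddx3y* and *Eif2s3y*, were named after their values were seen. The members and lists were chosen with earlier results of these data known. The steps were tested on simulated arrays. The scaling, the filter, the rule for several probes, normexp and the processed table were varied. The tools were R 4.3.3 with limma 3.58.1, and Python 3.11.15 with pandas 2.3.3 and numpy 2.4.6.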

Additional observations from a re-analysis of the deposited data

How the results depend on the processing

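The counts of 4 *Hox* and *Cdx* genes at least 1.5-fold lower and 1 at least 1.5-fold higher stood under scaling to the median, no scaling, quantile normalization, loess (span 0.3), the brightest probe, the mean of linear folds, with marked spots kept and with the processed table, and each of the 18 genes stayed on its side of 1.5-fold under these. The median of the measured *Hox* genes ranged from -0.24 without scaling, which moved the median of all genes to -0.10, to -0.03 with normexp. Without a filter on dim probes, 14 of the 41 genes were lower and 2 higher, where 8.56% and 5.99% of all genes were. With normexp (offset 50, on median signals) 1 was lower and 0 higher, where 0.23% and 0.65% of all genes were. *Hoxd9* was then at -0.62, *Cdx1* at -0.41, *Hoxb2* at -0.39, *Hoxb6* at -0.09 and *Hoxa9* at 0.24. This setting changes the signal, the background method and the offset together, and the cause was not tested. Counting a probe as above background with any spot, chosen after seeing the data, left 4 lower and gave 2 higher, as *Hoxa11* then counts as measured. Without scaling *Hoxa7*, *Hoxa13* and *Hoxc8* moved from above to below 0, as did *Hoxa7* with normexp (*Hoxb4* the other way) and *Hoxa13* with no filter on dim probes. None of these was past 1.5-fold. Signal over background limits what can be said of the 15 genes on neither array. No paired analysis was possible because each genotype has 1 array.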
